A study of Homo sapiens with 12 samples.

Results

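The 5S ribosomal RNA was followed through RNA immunoprecipitation libraries as 9 gene copies, taken by their Ensembl identifiers from a table of 60708 features. The 9 copies were chosen by identifier, with the deposited counts of all 12 libraries and earlier results on them known, so all their levels and differences below are descriptions, and no difference of theirs is presented as an independent test. The 12 libraries came from the established human kidney line HK2, of epithelial origin, in which every culture had received 10 µg of plasmid for FLAG-tagged human Arid5a, an RNA-binding protein, before 3 h of treatment. The 4 groups, of 3 libraries each, were FLAG precipitates after IL-17 at 200 ng/mL, FLAG precipitates in medium, mouse IgG1 precipitates after IL-17 and mouse IgG1 precipitates in medium. Because the control precipitates also came from transfected cells, the libraries hold no untransfected group. Neither a promoter nor a clone of the line is named in the labels, and nothing in them says that replicates were separate cultures.

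5S ribosomal RNA is the smallest RNA of the large ribosomal subunit. It is made by RNA polymerase III with the help of the factor TFIIIA, outside the nucleolus, from a tandem array of near-identical genes. Before it joins the subunit it is carried by the ribosomal proteins RPL5 and RPL11, and this particle can also bind MDM2, the ligase that restrains p53. Mature 5S RNA carries no poly(A) tail, whereas the low-input cDNA kit named in the labels primes from poly(A). The RefSeq annotation of GRCh38.p14, the build family named in the submitters' processing notes, lists 17 genes from RNA5S1 to RNA5S17. All 17 lie on chromosome 1 between 228610266 and 228646158, each is 121 bases long, and their starts are 2215 to 2242 bases apart. RefSeq also lists 510 RNA5SP pseudogenes on 24 chromosomes. The annotation holds no Ensembl identifiers, so none of the 9 copies could be tied to 1 of the 17 symbols, and the label of the copies rests on the identifiers alone.

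The deposited counts did not separate the copies from each other. The copies had 2 count profiles among them: 8 had the same estimated count in all 12 libraries (ENSG00000199270.1, ENSG00000199334.1, ENSG00000199337.1, ENSG00000199352.1, ENSG00000199396.1, ENSG00000199910.1, ENSG00000200343.1 and ENSG00000200381.1), and ENSG00000200370.1 differed from those 8 in 1 library. Each of the 8, such as ENSG00000199352.1, had 3985.69, 7854.13 and 5725.31 counts in FLAG IL-17 replicates 1, 2 and 3, against 78.52, 355.11 and 131.54 counts in FLAG medium. In IgG libraries ENSG00000199352.1 had 812.5, 2810.59 and 1838.3 counts with IL-17, against 79.65, 129.49 and 30.36 counts in medium. None of these 12 counts is whole, so reads were divided between features in every library.

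The division reached beyond the 9 copies. In all, 16 features of the table, the 9 copies and 7 others, agreed to within 0.02 counts in at least 11 of the 12 libraries. The exception was FLAG IL-17 replicate 1, where 4 of the 16 features, ENSG00000200370.1 among them, had 5371.63 counts and the other 12 had 3985.69, a ratio of 1.35. The share of the copy ENSG00000200370.1 in the sum of the 9 was therefore 14.4% in that library and 11.1% in each of the others. The files do not pair the 7 other features with gene names. The 9 copies held 53.8% to 56.2% of the counts of the 16, and the 7 others the rest. For these reasons the 9 copies are given as a sum, and a count of copies is a count of near-identical rows and not of separate measurements.

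Summed 5S counts were highest in FLAG precipitates after IL-17. The sum of the 9 copies, scaled to counts per 1000000 of the library (CPM), was 2102, 5177 and 2919 in FLAG IL-17 replicates 1, 2 and 3. The sum was 294, 423 and 187 CPM in FLAG medium. It was 1363, 2447 and 1045 CPM in IgG IL-17. The IgG medium libraries had 960, 190 and 71.8 CPM, so replicate 1 of that group stood close to the lowest IL-17 library and the other 2 well below it. The 95% Wilson interval that was widest for its level ran from 63.8 to 80.8 CPM, for IgG medium replicate 3 with 273.24 summed counts. Counting error, which is all these intervals cover, is thus small beside the differences between libraries.

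**Figure D1:**
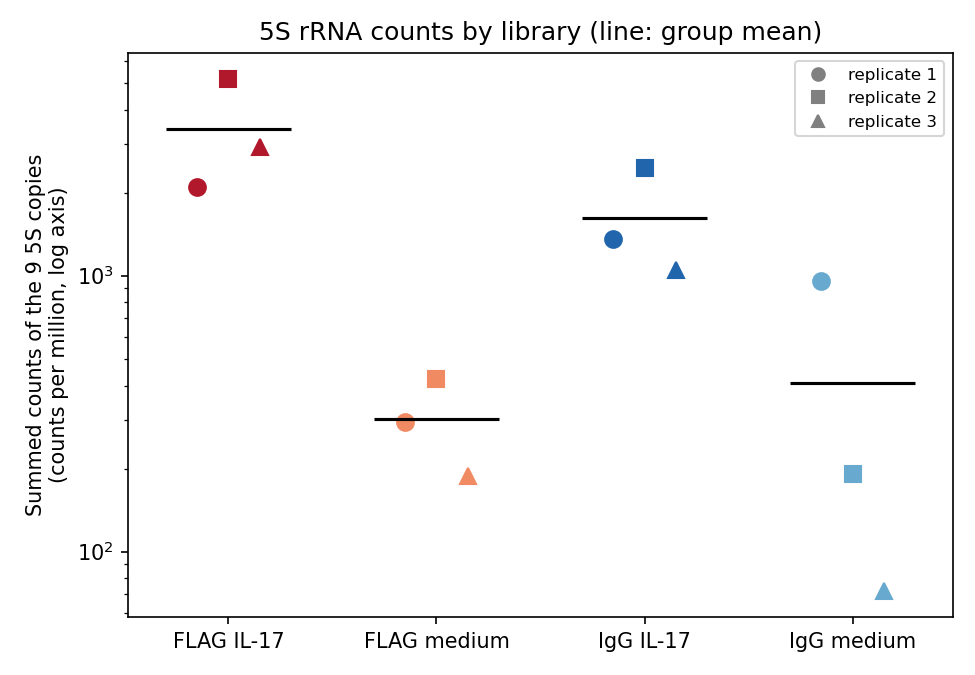
Summed counts of the 9 5S copies as CPM (log axis) in each of the 12 libraries, by group, with marker shapes for replicate numbers and a line at each group's mean. FLAG IL-17 libraries sit between 2102 and 5177 CPM and FLAG medium libraries between 187 and 423 CPM, while IgG medium replicate 1, at 960 CPM, lies just under the lowest IgG IL-17 library at 1045 CPM.

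Depth and library content differed between the same groups. Total estimated counts ran from 746911 to 17723136, and averaged 16342800 ± 2329330 for FLAG IL-17, 5427200 ± 2692830 for FLAG medium, 10513200 ± 5238390 for IgG IL-17 and 3556170 ± 2694230 for IgG medium (SD, n = 3 each). Of the libraries, 4 stood apart. At an equal depth of 740000 counts, 31915 features were expected in IgG IL-17 replicate 1, 25661 in IgG medium replicate 2 and 24902 in FLAG medium replicate 1. The other 8 libraries had 12909 to 21262, and IgG medium replicate 1, the shallowest library, had 9821. The labels give no batch. The FLAG groups did not overlap in depth, so treatment and depth cannot be told apart there. In IgG libraries depth overlapped: IL-17 replicate 1 had 5365495 counts and medium replicate 2 had 6118339. The part of depth in the 5S differences was not tested. In such bulk precipitates, CPM is a share of each library and gives neither the number of cells nor the amount of 5S RNA per cell.

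The first comparison was between IL-17 and medium in FLAG precipitates. The summed 5S level averaged 3400 ± 1593 CPM with IL-17 and 301 ± 118 CPM in medium (SD, n = 3 each), a ratio of 11.3 between the means. The groups did not overlap: the lowest IL-17 library, at 2102 CPM, was well above the highest medium library, at 423 CPM. Of the 24040 features tested, 3.29% were higher in every FLAG IL-17 library than in any FLAG medium library. With all 12 libraries in 1 edgeR quasi-likelihood fit, scaled by TMM composition factors, the sum had a log2 fold change of 4.08 ± 0.89 (SE). The composition factors added 0.51 to the mean difference on the log2 scale, because they averaged 0.853 with IL-17 and 1.21 in medium.

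In that fit all 9 copies were called higher with IL-17 at a Benjamini-Hochberg adjusted p under 0.05, where 0.22% of all tested features were called. Nothing is read from this share, since the copies were picked with the comparison known and are near-identical rows. The log2 fold changes ran from 4.18 for the 8 alike copies to 4.26 for ENSG00000200370.1, against a median of -0.29 over all tested features. The 16 features with the shared profile made up 16 of the 53 features called higher in FLAG, where 1 was called lower. At an unadjusted p under 0.05 more features were lower than higher there in edgeR, 1889 against 734. The call ended (0 of 9 copies) with RLE factors, with a filter of 50 counts in 3 libraries, and in limma on TPM. It also ended without any 1 of the 3 FLAG medium libraries, without FLAG IL-17 replicate 2 or 3, or without IgG IL-17 replicate 2 or 3, while the log2 fold change of the sum stayed between 3.42 and 4.33 with any 1 library left out.

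IgG precipitates address whether the same difference was present without the FLAG antibody. With IL-17 the summed 5S level averaged 1618 ± 735 CPM, and in medium 407 ± 482 CPM (SD, n = 3 each), a ratio of 3.97. The groups did not overlap, but the gap was that between 1045 CPM in IgG IL-17 replicate 3 and 960 CPM in IgG medium replicate 1. Among all tested features, 7.23% were higher in every IgG IL-17 library than in any IgG medium library. The log2 fold change of the sum was 1.58 ± 0.81 (SE), against a median of 0.18 over all tested features.

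In IgG libraries edgeR called 0 of the 9 copies in either direction, where 0.0125% of all tested features were called higher. At an unadjusted p under 0.05 edgeR had 9 copies higher and 3.79% of all tested features higher. DESeq2 called 0 copies of 151 features called higher, and limma 0 copies of 3 with either pseudocount on TPM. This result rested on IgG medium replicate 1: without that library the medium mean was 131 CPM, the log2 fold change of the sum was 4.08 ± 1.03 (SE) and all 9 copies were called higher, among 64 features called higher and 11 lower over the whole table. Without the 4 libraries that stood apart the log2 fold change was 5.04 and again 9 copies were called, among 1191 features higher and 440 lower. IgG medium is then a single library whose spread is borrowed from the other groups.

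The IL-17 difference of the sum was larger in FLAG than in IgG libraries by 2.50 ± 1.13 (SE) on the log2 scale. In this test of the difference between both IL-17 effects edgeR called 0 of the 9 copies, and 0% of all tested features, in either direction. At an unadjusted p under 0.05 edgeR had 9 copies higher, and 1.07% of all tested features. DESeq2 and limma had 0 copies at either threshold. Over the whole table DESeq2 called 15 features higher and 168 lower, and limma 0 in either direction. At the unadjusted p DESeq2, run without the filter, had 358 features higher (0.74%) and 3487 lower. On log2(TPM + 1) limma had 19 higher (0.079%) and 483 lower. Without IgG medium replicate 1 the log2 difference of the sum, 2.50 with all libraries, was 0.20. Without the 4 libraries that stood apart it was -0.97.

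FLAG precipitates were next set against IgG precipitates of the same treatment, the comparison that measures recovery with Arid5a over background. After IL-17 the summed level averaged 3400 ± 1593 CPM in FLAG and 1618 ± 735 CPM in IgG (SD, n = 3 each), a ratio of 2.10. The groups overlapped, because FLAG IL-17 replicate 1, at 2102 CPM, was lower than IgG IL-17 replicate 2, at 2447 CPM. The log2 fold change was 1.31 ± 0.80 (SE), against a median of -0.33 over all tested features. It stayed between 0.78 and 1.63 with any 1 library left out. Of the 9 copies edgeR called 0, as it did 0% of all tested features. At an unadjusted p under 0.05, 0 copies were higher or lower in edgeR, DESeq2 or limma. Of the 24040 features, 0.566% were higher in edgeR and 0.0166% in limma on log2(TPM + 1). In DESeq2, run without the filter on more features, 0.502% were higher, a share with a larger base. More features were lower than higher there: 540 against 136 in edgeR, 1897 against 243 in DESeq2 and 10 against 4 in limma on that scale.

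In medium the direction between FLAG and IgG depended on the scale and on 1 library. The summed level averaged 301 ± 118 CPM in FLAG and 407 ± 482 CPM in IgG (SD, n = 3 each), and the groups overlapped. The log2 fold change was -1.19 ± 0.80 (SE) in edgeR, while the difference between the mean log2 CPM values was 0.28. Without IgG medium replicate 1, where the sum was 960 CPM, the log2 fold change was 1.20 ± 0.89 (SE). Again edgeR called 0 of the 9 copies, as it did 0% of all tested features, while DESeq2 called 0 copies of 162 features called higher. At an unadjusted p under 0.05, 0 copies were higher or lower in edgeR, DESeq2 or limma. Of the 24040 features, 4.17% were higher in edgeR and 3.96% in limma on log2(TPM + 1). In DESeq2, run without the filter on more features, 4.25% were higher, a share with a larger base. Fewer features were lower than higher there: 576 against 1002 in edgeR, 1157 against 2054 in DESeq2 and 192 against 951 in limma on that scale. In order of mean CPM the 4 groups therefore ran FLAG IL-17, IgG IL-17, IgG medium and FLAG medium, with overlapping libraries within either treatment.

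**Figure D2:**
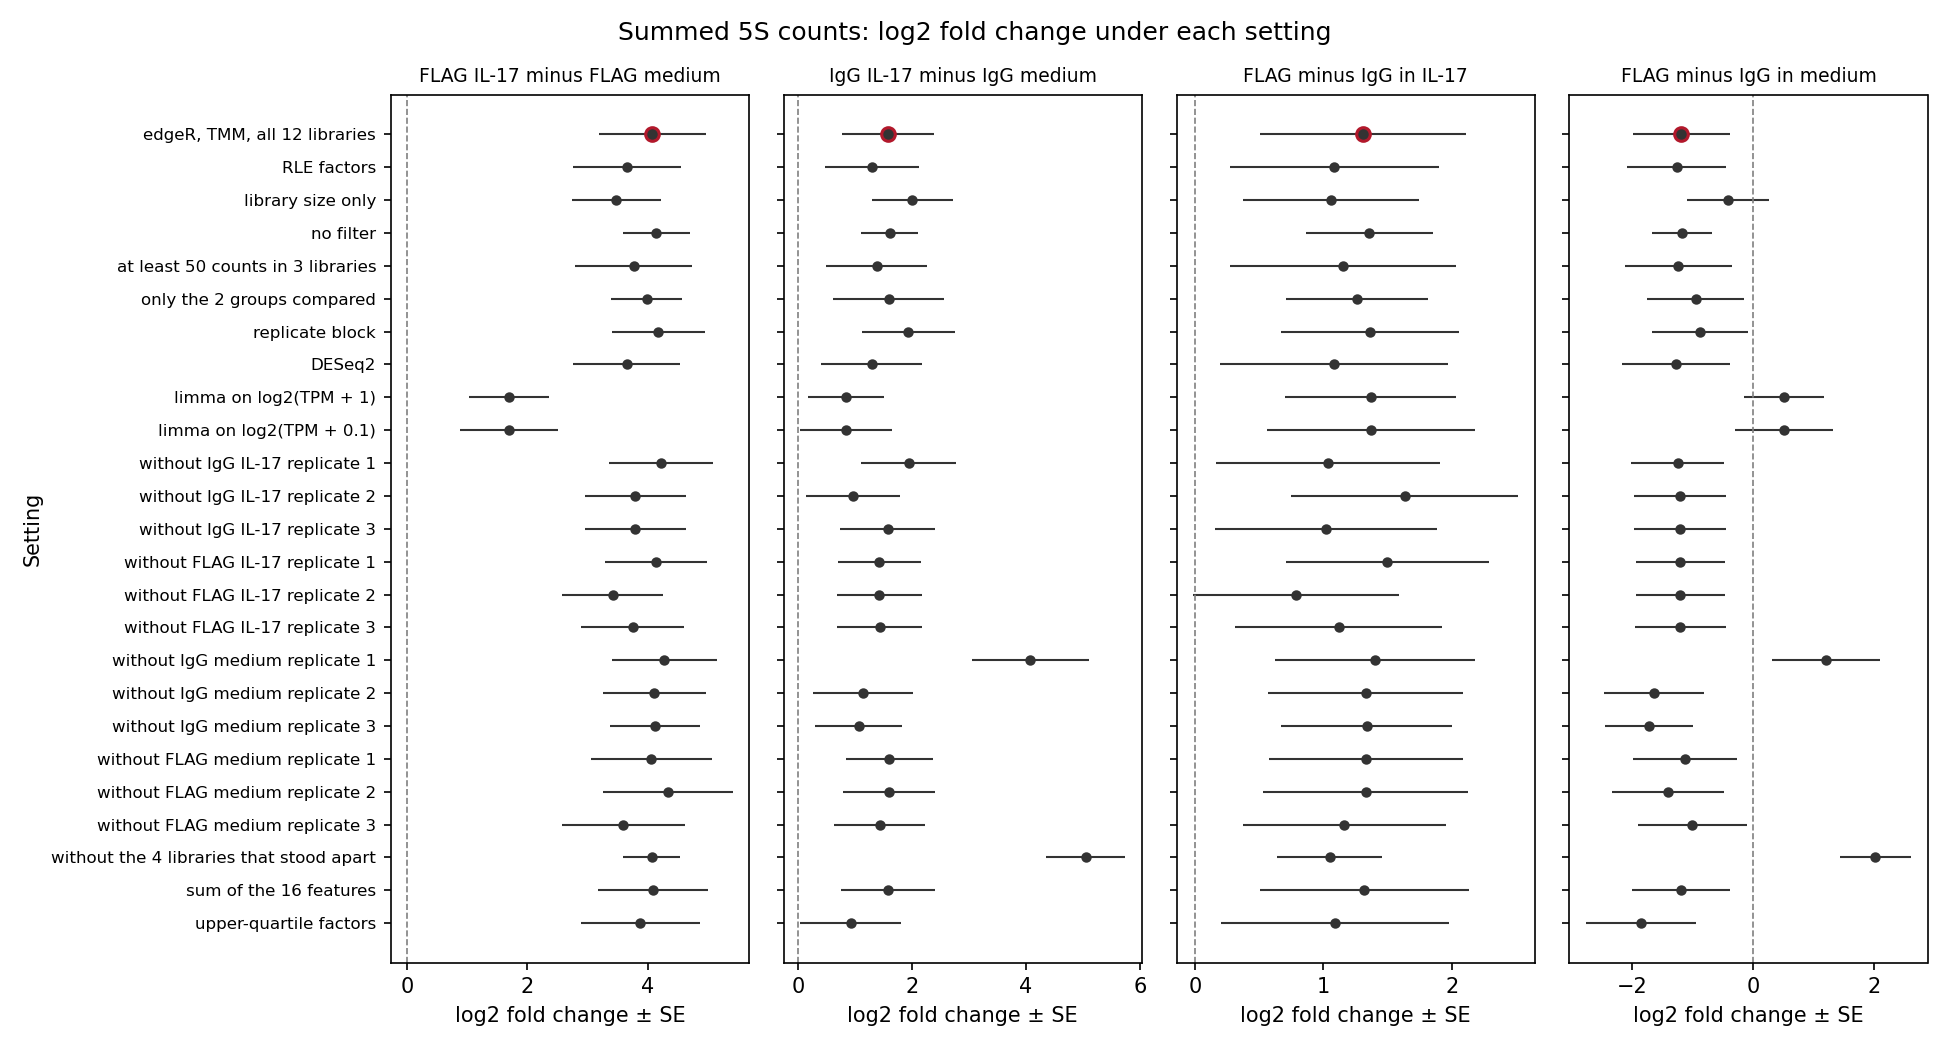
Log2 fold change of the summed 5S counts (points, with SE) in the 4 comparisons under each setting; the red point is the edgeR fit with TMM factors and all 12 libraries, and the dashed line marks 0. The FLAG IL-17 minus FLAG medium values stay above 3.4 in the count fits and are 1.70 on TPM, and the FLAG minus IgG values in medium lie on both sides of 0.

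Transcripts per 1000000 (TPM), the second deposited unit, divide each count by an effective length, the number of start positions the estimation allows a fragment on that transcript. On this scale 5S RNA was among the most abundant species of the libraries. The 9 copies together held 8.70%, 11.5% and 4.60% of all TPM in FLAG IL-17 replicates 1, 2 and 3, against 2.15%, 5.34% and 1.17% in FLAG medium. They held 4.96%, 4.07% and 1.32% in IgG IL-17, against 1.94%, 3.19% and 0.755% in IgG medium. All 16 features of the shared profile held 16.2%, 20.4% and 8.18% in FLAG IL-17, against 3.83%, 9.50% and 2.08% in FLAG medium. In IgG libraries the 16 held 8.81%, 7.24% and 2.35% with IL-17, against 3.45%, 5.67% and 1.34% in medium. If ranked as 1 feature, the sum of the 9 copies stood at rank 1 to 3 in 6 libraries by TPM, and at rank 36 in IgG medium replicate 3. By estimated counts, which are not divided by length, its rank ran from 20 in FLAG IL-17 replicate 2 to 2581 in IgG medium replicate 3.

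The IL-17 difference was smaller in TPM than in counts. In FLAG libraries the 9 copies averaged 8.26 ± 3.46% of TPM with IL-17 and 2.89 ± 2.18% in medium (SD, n = 3 each), a ratio of 2.86 where the ratio in CPM was 11.3. FLAG IL-17 replicate 3, at 4.60%, overlapped with FLAG medium replicate 2, at 5.34%. In IgG libraries the averages were 3.45 ± 1.90% with IL-17 and 1.96 ± 1.22% in medium (SD, n = 3 each), a ratio of 1.76, and those groups also overlapped. Replicate 3 had the lowest 5S share of TPM in each of the 4 groups. On log2(TPM + 1) the sum differed by 1.70 ± 0.67 (SE) in FLAG libraries and by 0.84 ± 0.67 (SE) in IgG libraries. FLAG exceeded IgG by 1.37 after IL-17 and by 0.51 in medium, so in medium the sign was opposite to that of the edgeR fit on counts.

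**Figure D3:**
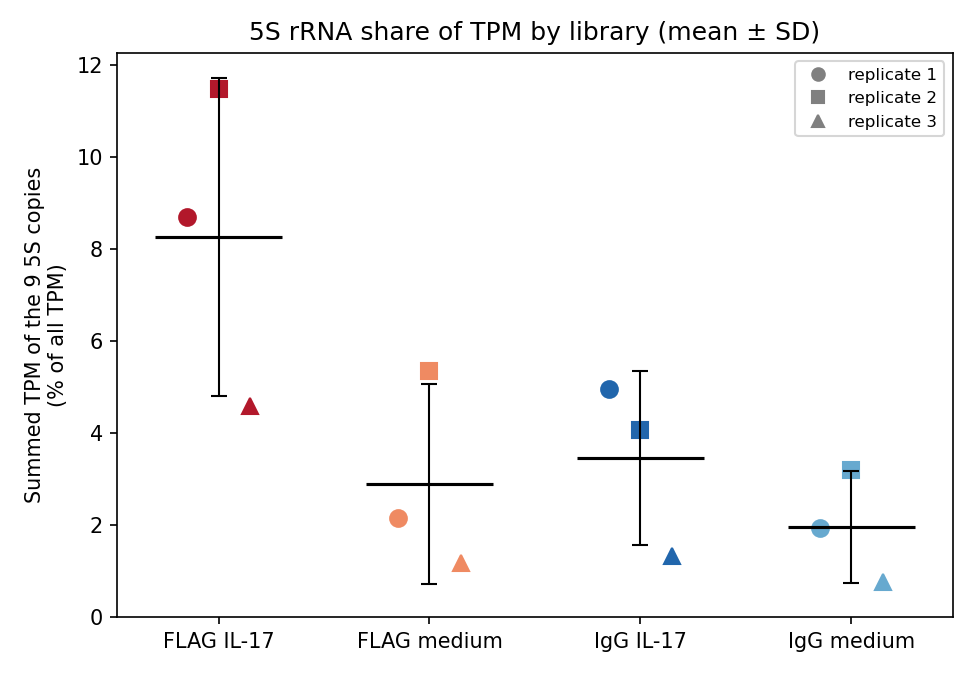
Share of all TPM held by the 9 5S copies (%) in each library, by group, with the mean and SD of the 3 libraries. FLAG IL-17 libraries hold 4.60% to 11.5% and FLAG medium libraries 1.17% to 5.34%, so the groups overlap on this scale.

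The effective length given to the 5S copies also differed between libraries. The apparent effective length, the ratio of count to TPM, was set relative to the median of 2658 features measured in all libraries, and was the same for all 9 copies. It was 0.155%, 0.226% and 0.241% of that median in FLAG IL-17 replicates 1, 2 and 3, against 0.141%, 0.113% and 0.129% in FLAG medium. The IgG libraries had 0.206%, 0.286% and 0.341% with IL-17, against 0.306%, 0.108% and 0.105% in medium. All IL-17 libraries thus had longer apparent 5S lengths than all medium libraries, except that IgG medium replicate 1 lay among the IL-17 libraries. In 5S counts that library, at 960 CPM, was below all IL-17 libraries. A TPM value at so small a length multiplies each count by a large factor. In some medium libraries the counts were few: IgG medium replicate 3 reached 0.755% of TPM on 273.24 counts. The FLAG IL-17 libraries had 37257 to 70687 summed counts.

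**Figure D4:**
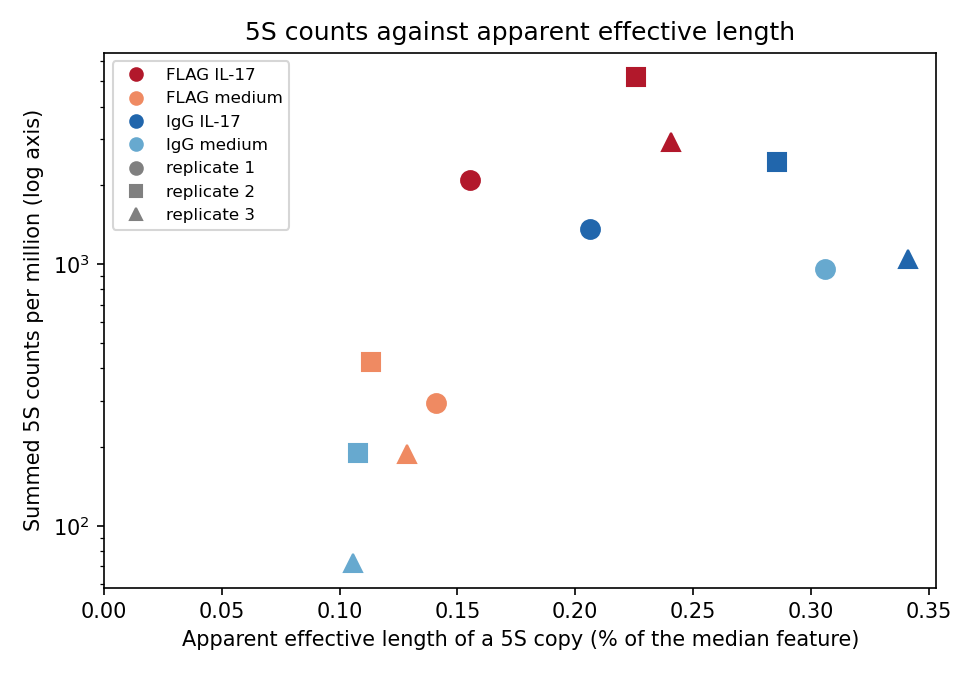
Summed 5S counts as CPM (log axis) against the apparent effective length of a 5S copy (% of the median feature) in each library, with colours for groups and marker shapes for replicates. FLAG medium libraries and IgG medium replicates 2 and 3 lie at 0.105% to 0.141%, and IgG medium replicate 1 lies among the IL-17 libraries at 0.306%.

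Because CPM, TPM and length are tied by arithmetic, the difference in counts could be split exactly. In FLAG libraries the mean log2 CPM of the sum was 3.47 higher with IL-17 than in medium. Of this, 1.70 was the difference in TPM, 0.68 was the difference in relative effective length, and 1.09 was the number of counts that a TPM of the median feature was worth in CPM. In IgG libraries the total of 2.68 was made of 0.84, 0.84 and 1.003 in the same order. Between FLAG and IgG after IL-17 the total was 1.06, with 1.37 from TPM, -0.42 from length and 0.11 from the third term. The part of fragment length or RNA quality in these differences was not tested.

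The 5S sum was also set beside other short features, as a description only. They were not matched to the apparent 5S length, which was 0.105% to 0.341% of the median feature. Among the 2298 tested features in the lowest 10% of apparent length, without the 16 that share the 5S profile, the median log2 fold change between IL-17 and medium was 0.09 in FLAG libraries and 0.03 in IgG libraries. In FLAG libraries the middle of their range, between the quartiles, ran from -1.58 to 1.05. The fold change of the 5S sum exceeded that of 96.7% of them in FLAG libraries and 80.0% of them in IgG libraries. After IL-17 the median of FLAG against IgG for these short features was 0.08, and the 5S sum exceeded 93.3% of them.

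The features most like the 5S sum over the 12 libraries were those of the shared profile. ENSG00000200624.1 and ENSG00000201588.1, by the rule the most alike features outside the 9 copies, tied with 2 more at a Pearson correlation of log2 CPM of 0.99997, which their shared division of reads fixes. Outside the 16 features, ENSG00000201321.1, singled out after its values were seen, was the most alike at 0.996. It averaged 131 ± 64.2 CPM with IL-17 and 9.09 ± 2.52 CPM in medium in FLAG libraries, and 64.9 ± 23.2 CPM with IL-17 and 16.3 ± 22.9 CPM in medium in IgG libraries (SD, n = 3 each). Of the 24024 tested features outside the 16, 22 had a correlation over 0.95, while the median correlation was -0.03. The 12 points share depth and treatment, so these correlations describe likeness in these libraries alone.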

How the data were processed

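The deposited tables hold estimated counts and TPM for 60708 features in 12 libraries. Per the submitters' processing notes, the tools included RSEM 1.3.1, STAR 2.7.9, R 4.2.0 and DESeq2 1.36.0, with the build names hg38 and GRCh38, and no role is stated for any of them. The deposited table named for FPKM was read as TPM, because each column sums to 1000000 within rounding.

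Of the deposited estimated counts above 0, 18.0% were not whole, and counts were rounded before testing; the 9 copies were summed first for the fits of the sum. Groups came from the sample titles. After filterByExpr at a minimum count of 10 and TMM scaling, all features were fitted over the 12 libraries in edgeR 4.0.16 (quasi-likelihood test, R 4.3.3), with Benjamini-Hochberg adjustment over 24040 features. All 9 copies passed the filter. The common dispersion was 0.953. The quasi-likelihood fit estimated the spread of each feature over all 4 groups together, so a standard error also carries the spread of groups outside the comparison. Replicates may be technical, and p-values speak only of the spread among these 12 libraries. No p is given for the sum. Standard errors were taken from the F statistic. The procedure was tested on simulated data that gave every feature the common dispersion. Those data held no libraries that stood apart and no reads divided between features, so the test says nothing about either. Alternatives used limma 3.58.1 and DESeq2 1.42.0. The limma fits took the features that passed the filter. DESeq2 took every feature with a rounded count above 0 in any library, so its numbers and shares of features have a larger base.

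The copies, lists and rules were chosen with earlier results of these data known. The rule for named features took the 9 copies, their sum and, because no names were at hand, the 2 other features most correlated with the sum. Lists of 5S ribonucleoprotein and RNA polymerase III genes and of cell type markers were not used here, since the identifiers could not be paired with symbols, so the label HK2 was not checked against markers. With a floor of 3 counts, 4.02 CPM is the upper limit of an undetected feature in the shallowest library; none of the copies had a count of 0. No sequence of the 5S genes was at hand.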

Additional observations from a re-analysis of the deposited data

How the results depend on the processing

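Leaving out the 4 libraries that stood apart, summing all 16 features and upper-quartile factors were chosen after seeing the data. Causes of these moves were not tested. The calls of the 9 copies between IL-17 and medium in FLAG libraries numbered 0 with RLE factors, with the filter of 50 counts in 3 libraries and in limma with either pseudocount, and 9 under the other 7 alternatives. They ranged from 0 to 9 when 1 library was left out. All features called higher there, 53 in edgeR, numbered 4 with RLE factors or the 50-count filter, 5 in limma, 99 with the replicate block, 137 without a filter, 173 in DESeq2, 464 without the 4 libraries and 5 to 82 with 1 library left out. In IgG libraries they numbered 9 without the 4 libraries that stood apart, where 1191 features were called higher over the whole table. They ranged from 0 to 9 when 1 library was left out, with 9 only without IgG medium replicate 1, where 64 features were called higher. Between FLAG and IgG in medium 1 copy, ENSG00000200370.1, was called higher without the 4 libraries that stood apart, among 981 features higher and 256 lower; leaving out 1 library gave 0 in every fit.

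The log2 fold change of the sum between IL-17 and medium in FLAG libraries was 1.70 on log2(TPM + 1) and on log2(TPM + 0.1), and 3.42 to 4.33 with 1 library left out. In IgG libraries it was 5.04 without the 4 libraries and 0.95 to 4.08 with 1 left out. Between FLAG and IgG in medium it was 0.51 on either TPM scale, 2.02 without the 4 libraries and -1.72 to 1.20 with 1 left out. Between FLAG and IgG after IL-17 it ran from 1.05 to 1.37 over 12 alternatives. The change of the IL-17 difference was 0.86 on either TPM scale, -0.97 without the 4 libraries and 0.20 to 3.05 with 1 left out.

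Single copies turned sign in 2 comparisons. Between FLAG and IgG in medium, ENSG00000199270.1 and ENSG00000200370.1 both had 0.51 on either TPM scale, 1.21 without IgG medium replicate 1 and 2.04 without the 4 libraries, with a range of -1.66 to 1.21 when 1 library was left out. For the change of the IL-17 difference they had -1.003 and -0.93 without the 4 libraries.

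With the replicate number as a block, the sum had 4.18, 1.93, 1.363 and -0.88 for IL-17 in FLAG, IL-17 in IgG, FLAG over IgG after IL-17 and FLAG over IgG in medium, and the calls of copies were as without the replicate block. Same-numbered libraries deviated together at correlations from -0.14 to 0.47, over 0.1 in 9 of 18 pairs. Differently numbered libraries ranged from -0.48 to 0.49. Pairs of replicate 3 libraries were all positive, from 0.21 to 0.39. The main fit did not pair the libraries by number, and whether the numbers mark a shared effect was not tested. Depth limits IgG medium most, where the 9 copies had 273.24 counts in replicate 3.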
